A study of Mus musculus with 4 samples.

Results

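Chromatin accessibility was described at 10 genes that encode the lipases, lipase regulators and lipid droplet proteins of the adipocyte, in single-nucleus ATAC-seq (snATAC-seq) of mouse inguinal white adipose tissue. The genes were Pnpla2, Lipe, Mgll, Abhd5, G0s2, Plin1, Plin4, Plin5, Cidea and Cidec. They were taken by name from the 17196 protein-coding genes that had at least 1 peak, and 91 of the 189598 peaks lay on their bodies or within 2000 bases upstream. All 10 passed the filter on low counts in adipocyte nuclei, where 14429 genes were tested, and 70 of the 91 peaks passed it.

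Tissue came from male C57BL/6 mice aged 8 weeks with no genetic change named in the labels, 3 mice in each of 7 groups. The day0RT mice were kept at room temperature (22 °C) and sampled before any intervention. The day1C, day3C and day7C mice were exposed to cold (6.5 °C) for 1, 3 or 7 days, and the day1CL, day3CL and day7CL mice received CL-316,243 (1 mg/kg), a selective agonist of the β3-adrenergic receptor, for the same times. All mice were housed at room temperature before the intervention, and the labels named no vehicle group. Nuclei were obtained from homogenized whole tissue, and the 32552 nuclei had been assigned by the authors to a mouse and to 1 of 12 clusters.

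An adipocyte stores triglyceride in a large droplet whose surface is coated by perilipins. At rest perilipin 1 holds back CGI-58, the coactivator encoded by Abhd5. When β-adrenergic signalling activates protein kinase A, CGI-58 is released to adipose triglyceride lipase (ATGL, encoded by Pnpla2), hormone-sensitive lipase (HSL, encoded by Lipe) moves to the droplet, and monoglyceride lipase (Mgll) completes the hydrolysis. G0s2 encodes an inhibitor of ATGL. The CIDE proteins act at contacts between droplets, where CIDEC favours fusion into 1 large droplet and CIDEA is a known mark of brown and beige adipocytes with many droplets.

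Each entry of the matrix is 1 where a nucleus had a read in a peak, so a count here is the number of nucleus-by-peak entries summed over a gene's peaks. A level is given as CPM, the gene's share of all counts on genes in the same library, scaled to the same total for every library. In adipocyte libraries (white and beige nuclei of 1 mouse summed) it was divided by the TMM factor too. Some peaks also lie on another gene and count for both, so these levels are not wholly the gene's own. Shared peaks held 11.3% and 17% of the summed peak level of Pnpla2 (with Cracr2b). They held 28.4% for Plin4 (with Hdgfl2), 22.3% for Plin5 (with Lrg1) and all of it for G0s2 (with Lamb3). The 7004 adipocyte nuclei gave 29 to 933 nuclei and 62318 to 4279964 counts per mouse, and the smallest library was day1CL mouse 1. The median count per adipocyte nucleus ran from 1330.5 to 6685.5 and was 1330.5 to 2697 in day0RT, 2058 to 3513.5 in day7C and 1932 to 6685.5 in day7CL. Beige nuclei were 7.69 to 12.2% of the adipocyte nuclei in day0RT, 26.1 to 32.5% in day7C and 14.5 to 23.5% in day7CL. In all, 4218 barcode strings occurred in more than 1 mouse. Of the 4824 pairs of nuclei that shared one, 0 joined a CL mouse with a cold or day0RT mouse. A difference that goes with this division of barcodes cannot be told apart from CL treatment in comparisons of CL with day 0 or cold. In 56 of the 4824 pairs, the nuclei also shared over 50% of the shallower nucleus's peaks, all between day3C mouse 1 and day7C mouse 1. The shallower nuclei of these pairs included 45 adipocyte nuclei, with 1.84% of the adipocyte counts of day7C mouse 1, and leaving them out changed no count of the 10 genes called and left 3 called peaks in place of 4 at day 7 in cold.

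Upstream DNA of genes with called changes is printed here from RefSeq, build GRCm38.p6 (mm10). The first set is that of the 4 genes that fell under both treatments, taken from the 250 bases before the RefSeq start, 5′ to 3′ on the strand of the gene. Annotated exon bases were cut off, so the Plin1 and Plin4 stretches end directly before the GENCODE start and short of the RefSeq start. Capitals mark matches on either strand to the motifs named after them. Pnpla2 lay at chr7:141454938-141455187 (plus strand, 250 bases), Plin1 at chr7:79732904-79733026 (minus strand, 123 bases), Plin4 at chr17:56109804-56110032 (minus strand, 229 bases) and Cidec at chr6:113435761-113436010 (minus strand, 250 bases). The Pnpla2 stretch lies in the start peak of that gene, which was called in no comparison. Its 1 called peak, chr7:141454360-141454610 (251 bases), is therefore printed whole as well, on the plus strand, and held no match to the motifs.
Pnpla2: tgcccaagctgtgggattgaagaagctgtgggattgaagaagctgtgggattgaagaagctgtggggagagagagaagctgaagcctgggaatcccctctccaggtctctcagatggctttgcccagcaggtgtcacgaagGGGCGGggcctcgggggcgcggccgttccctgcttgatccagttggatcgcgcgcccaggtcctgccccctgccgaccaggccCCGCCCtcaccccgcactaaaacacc
Pnpla2 called peak: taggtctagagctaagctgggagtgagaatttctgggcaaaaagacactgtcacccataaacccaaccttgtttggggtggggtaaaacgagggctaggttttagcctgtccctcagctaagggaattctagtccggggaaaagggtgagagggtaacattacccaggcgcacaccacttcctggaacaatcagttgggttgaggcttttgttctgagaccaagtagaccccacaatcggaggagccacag
Plin1: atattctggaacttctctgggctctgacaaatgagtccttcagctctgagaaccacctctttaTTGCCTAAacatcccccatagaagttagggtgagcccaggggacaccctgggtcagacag
Plin4: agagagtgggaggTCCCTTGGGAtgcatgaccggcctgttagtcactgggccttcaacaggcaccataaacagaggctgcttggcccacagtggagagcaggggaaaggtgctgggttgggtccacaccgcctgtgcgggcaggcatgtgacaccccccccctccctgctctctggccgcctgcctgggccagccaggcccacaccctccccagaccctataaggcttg
Cidec: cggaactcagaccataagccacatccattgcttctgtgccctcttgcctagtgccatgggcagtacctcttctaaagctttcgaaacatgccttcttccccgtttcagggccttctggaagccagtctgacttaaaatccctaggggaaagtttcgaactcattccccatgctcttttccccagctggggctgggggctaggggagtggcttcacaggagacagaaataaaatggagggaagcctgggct

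Motifs were searched on both strands in the 250 bases before the RefSeq start of 9 of the genes and of 32851 promoters in all. The C/EBP-type motif TTGCNNAA was in 9.56% of all promoters and in 1 of the 9, Plin1, with matches at -187 to -180 and -58 to -51 from the RefSeq start. Only the match at -187 to -180 lies in the printed Plin1 stretch. The EBF-type motif, TCCC and GGGA separated by 2 bases, was in 0.779% of promoters and in 1 of the 9, Plin4, at -237 to -228. The GC box GGGCGG was in 32.7% of promoters and in 5 of the 9, among them Pnpla2 at -109 to -104 and -26 to -21. The PPAR-RXR-type motif, 2 copies of AGGNCA separated by 1 base, was in 0.338% of promoters and in 0 of the 9. The same held for the ESRR-type motif TCAAGGTCA (0.387%), the GRE-type motif of GNACA and TGTNC separated by 3 bases (0.387%) and the CRE-type motif TGACGTCA (1.55%). A match describes letters only. These windows end at RefSeq starts, whereas genes, start peaks and distances here follow the GENCODE annotation, so the windows of Lipe, Abhd5, G0s2, Plin1, Plin4 and Plin5 overlap annotated exons of those genes.

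The second set comes from the peak of the 10 genes with the highest level, which also had their smallest adjusted p and lay inside a coding exon of Plin4 (chr17:56102135-56104265). Perilipin 4 is known for a long run of repeated helical segments. Comparing this peak with itself, identity was highest at a shift of 99 bases (33 codons), at 31.2% of positions against a median of 25.3% over shifts of 20 to 300 bases. No window of 99 positions reached 70% identity at this shift. The stretch of 3 consecutive units with the highest identity, at the edge of the peak, was picked and is printed on the minus strand. The units are chr17:56104165-56104263, chr17:56104066-56104164 and chr17:56103967-56104065, with capitals at positions that are not the same in all.
Plin4 unit 1: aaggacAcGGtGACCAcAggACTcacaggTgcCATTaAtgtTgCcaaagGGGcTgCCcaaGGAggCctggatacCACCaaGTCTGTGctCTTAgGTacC
Plin4 unit 2: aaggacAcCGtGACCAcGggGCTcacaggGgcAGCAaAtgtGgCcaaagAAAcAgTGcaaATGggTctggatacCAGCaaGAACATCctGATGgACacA
Plin4 unit 3: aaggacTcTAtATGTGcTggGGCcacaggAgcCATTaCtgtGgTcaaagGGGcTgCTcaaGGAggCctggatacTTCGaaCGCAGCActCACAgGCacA
These units, picked for their likeness, were the same at 51 of 99 positions, which does not describe the rest of the peak. No run of 50 bases occurred more than once within the peak.

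The 10 genes were open in adipocytes, but not all of them were highest there. Levels across clusters are a description with no test, because the clusters were built from the same matrix. Libraries of at least 10 nuclei were used, which left 21 mice for white adipocytes, 19 for beige and 10 to 21 for the other 10 clusters. The mean level was highest in white or beige adipocytes for 8 of the 10 genes, the exceptions being Pnpla2 and Plin4. Per kb of peak, the white adipocyte means were 74.2 CPM for Plin4, 69.2 for Lipe, 67 for Plin1, 65.1 for Cidec, 63.5 for Pnpla2 and 58.3 for G0s2. They were 46.8 for Plin5, 32.7 for Abhd5, 28.3 for Mgll and 21.7 for Cidea.

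**Figure D1:**
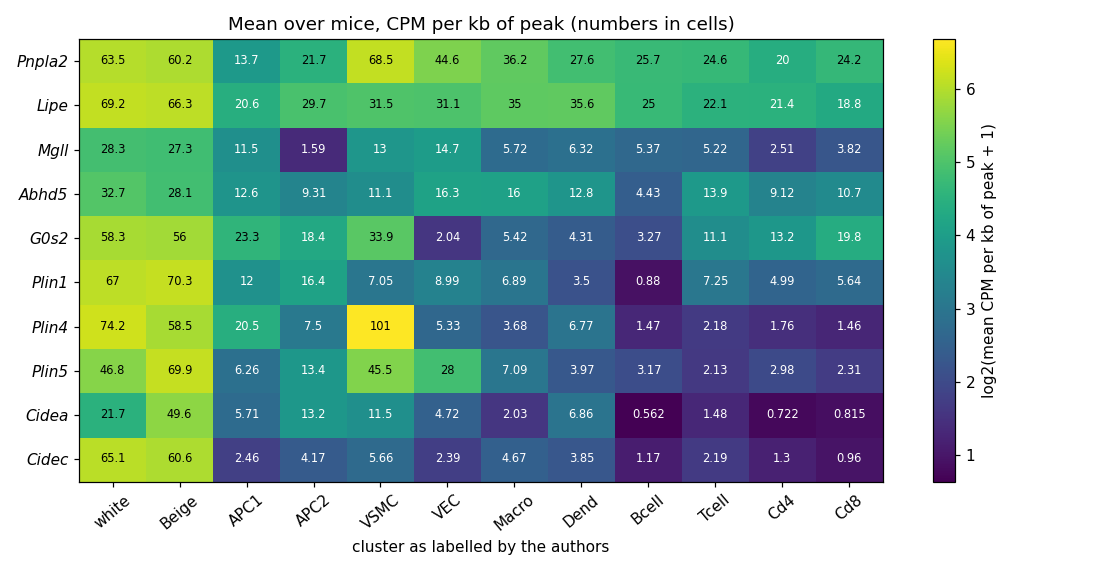
Mean CPM per kb of peak over mice for the 10 genes (rows) in the 12 clusters (columns, as the authors labelled them, with Adipocyte shown as white), with colour on a log2 scale. Plin4 reached 101 in the VSMC cluster against 74.2 in white adipocytes, and Cidec was 65.1 and 60.6 in white and beige adipocytes and at most 5.66 in the other clusters.

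Cidec had the sharpest separation. It stood at 190 ± 50.6 CPM in white adipocytes (SD, n = 21) and 177 ± 47.2 in beige adipocytes (n = 19), and the next cluster, VSMC, was at 16.5 ± 28 (n = 10), 11.5 times below white. The other clusters held few Cidec counts, 46 in all B cell libraries and 3 in all VEC libraries. One macrophage library reached 105, above the lowest white library at 87, while every library of the remaining 9 clusters lay below both adipocyte clusters.

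Plin1, the main coat protein of the adipocyte droplet, was at 317 ± 76.4 CPM in white and 333 ± 53.4 in beige adipocytes. APC2, the highest of the other clusters, was at 77.6 ± 54.3 (n = 19) with 1 library at 230.5, above the lowest white library (223). The remaining 9 clusters lay wholly below, down to 4.17 ± 2.89 in B cells.

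Plin4, which coats small nascent droplets, had the largest mean in the cluster labelled VSMC, at 667 ± 317 CPM (n = 10, 255 to 1442), against 488 ± 109 in white and 385 ± 79.1 in beige adipocytes. The spreads of VSMC and white adipocytes overlapped, and the remaining 9 clusters lay wholly below both adipocyte clusters. Pnpla2 was likewise at 214 ± 96.4 in this cluster, against 199 ± 31.3 in white and 188 ± 43.8 in beige adipocytes. Plin5, which tethers droplets to mitochondria in oxidative tissues, was at 48.4 ± 49.9 there and at 49.8 ± 13.4 in white and 74.3 ± 29.4 in beige adipocytes. Cidea was at 119 ± 56.7 in beige and 51.9 ± 15.1 in white adipocytes, and next at 31.6 ± 24.4 in APC2, with libraries of all 3 clusters overlapping.

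The markers of this cluster did not follow its label. Of all clusters it had the highest mean of Myh4 (58.9 CPM) and Myod1 (83.2), a fast myosin and a myogenic factor of skeletal muscle. Myog, the third muscle marker, was highest in VEC (15.6), whereas Pdgfrb, Acta2 and Myh11 were highest in APC2. It is called here by its label only. The markers Adipoq, Lep and Fabp4 were highest in the white cluster and Pparg, Ucp1 and Prdm16 in the beige cluster, with Ucp1 at 54.9 CPM in beige against 5.6 in white. The third beige marker, Ppargc1a, was highest in the cluster labelled VSMC, at 223 against 157 in beige and 104.5 in white.

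The lipases and their regulators were less restricted. Lipe stood at 369 ± 60.4 CPM in white adipocytes and at 190 ± 82.5 in dendritic cells, 1.94 times lower, and the lowest mean was 100.1 ± 14.5 in Cd8 cells. Mgll, which also cleaves the endocannabinoid 2-arachidonoylglycerol, was at 597 ± 64.5 in white adipocytes, 311 ± 174 in VEC and 33.5 ± 25.9 in APC2. Abhd5 was at 157 ± 31.7 against 78 ± 59.5 in VEC. The G0s2 peaks are shared with Lamb3, so its values belong to both genes, at 96.2 ± 16.9 in white adipocytes, 55.9 ± 35.7 in VSMC and 3.37 ± 7.08 in VEC. For all 4 genes the libraries of some other cluster overlapped with the adipocyte libraries.

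Beige and white nuclei of the same mouse could be set side by side in 19 mice, again as a description. Cidea was 1.14 ± 0.78 higher in beige on the log2 scale (SD over mice) and higher in 18 of 19 mice. Plin5 was 0.67 ± 0.63 higher in beige, in 16 of 19 mice. Plin4 was the reverse, 0.30 ± 0.28 lower on the log2 scale (a difference of -0.30), in 17 of 19 mice. For the other 7 genes the mean difference lay between -0.22 (Abhd5) and 0.15 (Plin1), less than the SD over mice in each. The Cidea difference by group was 1.84 in day0RT, 1.97 in day1C, 1.38 in day3C, 0.96 in day7C, 0.64 in day3CL and 0.39 in day7CL, the mean over 3 mice each. It was 0.05 in the 1 day1CL mouse with enough beige nuclei. The day0RT value rests on few counts. Its mice had 24, 12 and 22 beige nuclei, and 19, 15 and 45 Cidea counts in white and beige nuclei together, and mouse 2 alone gave 3.13.

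The next question was whether cold or CL changed these genes in adipocyte nuclei. Each group was compared with day0RT by edgeR's quasi-likelihood test on the 21 adipocyte libraries, with p-values adjusted over all 14429 genes by the Benjamini-Hochberg method and a gene called at an adjusted p under 0.05. All comparisons with day 0 share the same 3 day0RT mice. Plin4, Plin1 and Cidec fell after 3 and 7 days of either treatment, by 0.38 to 0.57 on the log2 scale, Pnpla2 fell in 3 of these 4 groups, and Cidea rose by day 7 under both. No gene of the 10 was called after 1 day. Over all 7 groups, 6 of the 10 genes differed, against 13.7% of all genes: Pnpla2, Lipe, Plin1, Plin4, Cidea and Cidec.

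**Figure D2:**
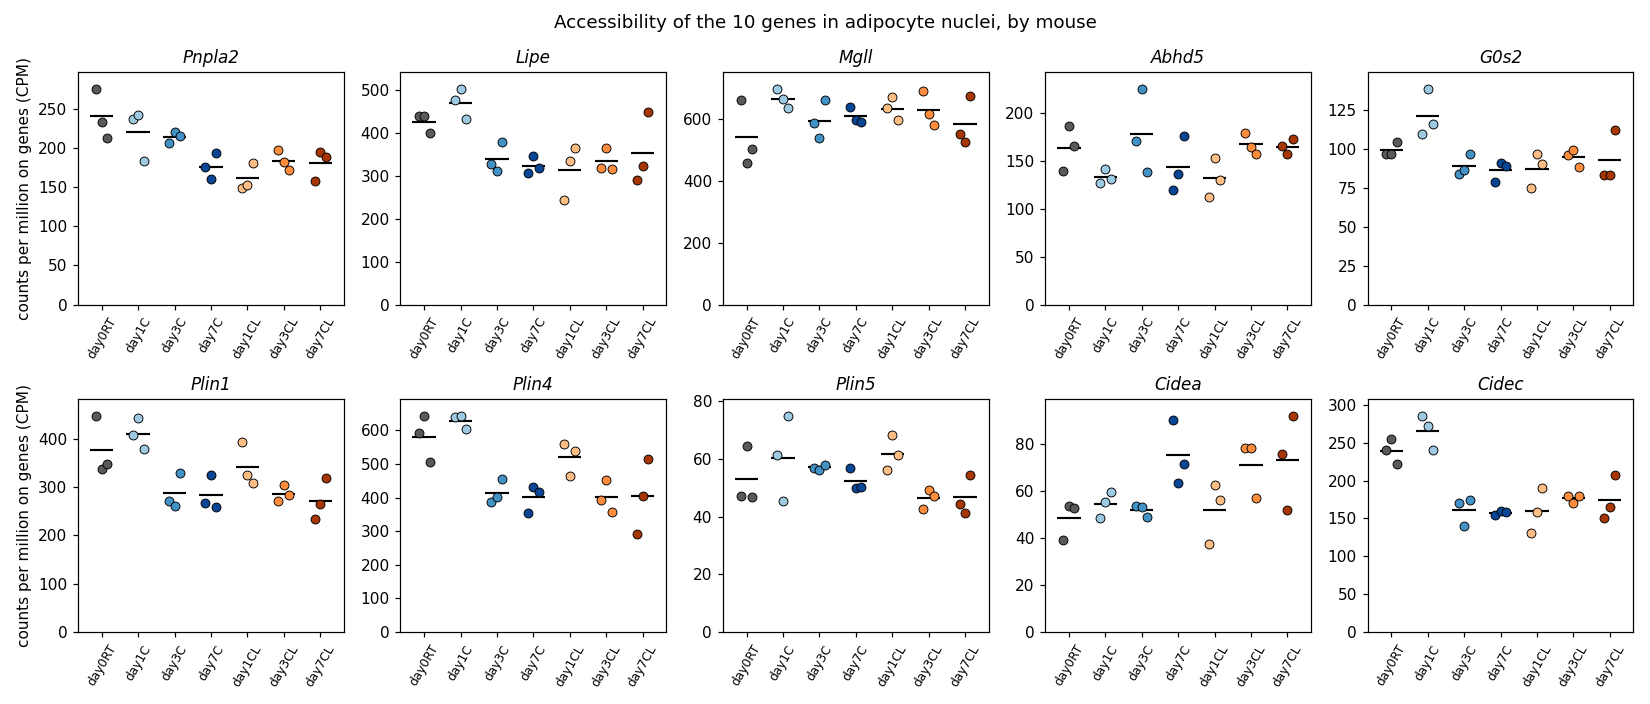
CPM of each of the 10 genes (panels) in the adipocyte nuclei of each mouse (points) by group, with the mean as a line. Cidec was at 221 to 255 in day0RT and at 154 to 160 in day7C, and Cidea was at 39 to 53.8 in day0RT and at 63.6 to 90.6 in day7C.

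In cold, 0 of the 10 genes were called at day 1, where 0.236% of all genes fell and 0.104% rose. By an unadjusted p under 0.05, 1 of the 10 passed at day 1, against 1439 of all 14429 genes. DESeq2 also called none of the 10, and 21 of all genes. At day 3, 3 of the 10 fell and 0 rose, against 0.783% and 0.894% of all genes. At day 7, 5 fell and 1 rose, against 2.11% and 2.97%. The median log2 fold change of the 10 was 0.15 at day 1, -0.18 at day 3 and -0.30 at day 7, beside -0.01 or nearer to 0 over all genes. With CL, 0 of the 10 were called at day 1, where 1.46% of all genes fell and 1.15% rose. An unadjusted p under 0.05 was reached there by 3 of the 10 and by 2189 of all 14429 genes. DESeq2 called 0 of the 10 and 143 of all genes. At day 3, 4 fell and 0 rose, against 1.69% and 3.08% of all genes, and at day 7, 4 fell and 1 rose, against 3.17% and 4.64%. The medians were -0.20, -0.20 and -0.24.

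Whether the 3 mice of a group overlapped with the 3 day0RT mice is given for each gene in what follows, and many genes had no overlap. In cold, 7.25%, 8.8% and 11.4% of all 14429 genes lay wholly below day0RT at days 1, 3 and 7, and 7.06%, 9.58% and 12.2% wholly above. With CL, 9.6%, 10.6% and 10.5% lay wholly below and 7.21%, 11.4% and 12.3% wholly above. Of the 10 genes, 0, 4 and 6 lay wholly below in cold and 4, 5 and 3 with CL. Wholly above were 1, 0 and 1 in cold and 0, 1 and 0 with CL.

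Several of these counts changed when 1 mouse was left out. For fits with 1 mouse left out, here and later, the number of all genes or peaks called is not given. A changed count in them cannot be read as particular to these genes or peaks. At day 1 in cold, 1 gene was called without day0RT mouse 1. At day 3 in cold, 0 genes were called without day0RT mouse 1 or without day0RT mouse 2, and 1 without day3C mouse 1 or mouse 2. At day 7 in cold, 2 were called without day0RT mouse 1, 3 without day0RT mouse 2 and 2 without day7C mouse 1. At day 3 of CL, 1 was called without day0RT mouse 1, 2 without day0RT mouse 2, 1 without day3CL mouse 2 and 2 without day3CL mouse 3. At day 7 of CL, 2 were called without day0RT mouse 1 and 0 without day7CL mouse 1, the library with the deepest nuclei (median 6685.5 counts). In each of these fits the called genes kept the sign of their fold change.

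Levels of called and uncalled genes moved with depth per nucleus. Within the 637 day0RT adipocyte nuclei, Plin4 was at 1127 CPM in nuclei under 1000 counts and at 339 in nuclei with 8000 or more. Plin1 went from 540 to 309, Lipe from 540 to 339, Cidec from 329 to 171 and Pnpla2 from 293 to 202 between the same bins. Of the genes without a call, G0s2 went from 129 to 84 and Mgll was at 563 and 581. Cidea was at 35.2 and 55.4, on 3 and 33 counts. Its direction between these bins varied by group. It was higher in the deepest bin in day1C and day7C, and lower there in day3C, day1CL, day3CL and day7CL. The median count per nucleus reached 4156 in day3C and 4103 in day3CL. Across the 21 mice, Pearson's r between the level on the log2 scale and the log2 median count per nucleus was -0.76 for Plin4, -0.63 for Plin1, -0.41 for Lipe, -0.41 for Cidec, -0.26 for Pnpla2 and 0.25 for Cidea, as a description. For the genes without a call it was -0.40 for Plin5, -0.38 for G0s2, -0.26 for Mgll and 0.23 for Abhd5.

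The median count per nucleus was then added as a covariate. Of all 14429 genes, 115, 619, 433 and 345 were called at day3C, day7C, day3CL and day7CL, in place of 242, 733, 688 and 1127. Of the 10, the count called was 0 at day 3 and 4 at day 7 in cold, and 0 at day 3 and 0 at day 7 of CL. The 4 were Cidec (-0.52), Plin4 (-0.38), Plin1 (-0.375) and Cidea (0.64), with adjusted p from 0.00449 to 0.0397 by edgeR. Each call lost kept its sign. At day3C, Cidec was then at -0.43, Plin1 at -0.31 and Plin4 at -0.28, and at day3CL the 4 genes lay between -0.295 (Plin1) and -0.35 (Cidec). At day7CL, Plin4 went from -0.56 to -0.32, while Cidea was at 0.635 in place of 0.56. The adjusted p of these lost calls ran from 0.0765 (Cidec, day3C) to 0.261 (Plin4, day3C). At day1CL, Pnpla2 was called with this covariate (-0.50, adjusted p = 0.0297, edgeR), where 531 genes were called in all. In an alternative chosen after seeing the data, only nuclei with 1000 to 4000 counts were kept. It tested 10843 genes, of which 19, 118, 165 and 77 were called in the same 4 comparisons. Of the 10 it called 0, 0, 0 and 1, the 1 being Plin4 at day7CL (-0.58, adjusted p = 0.0122, edgeR). The fold changes in it were -0.58 for Cidec, -0.56 for Pnpla2, -0.46 for Lipe, -0.42 for Plin1, -0.38 for Plin4 and 0.86 for Cidea at day7C. Over all 7 groups, 4 of the 10 still differed in this alternative, against 295 of its 10843 genes: Plin1, Plin4, Cidec and Lipe.

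**Figure D3:**
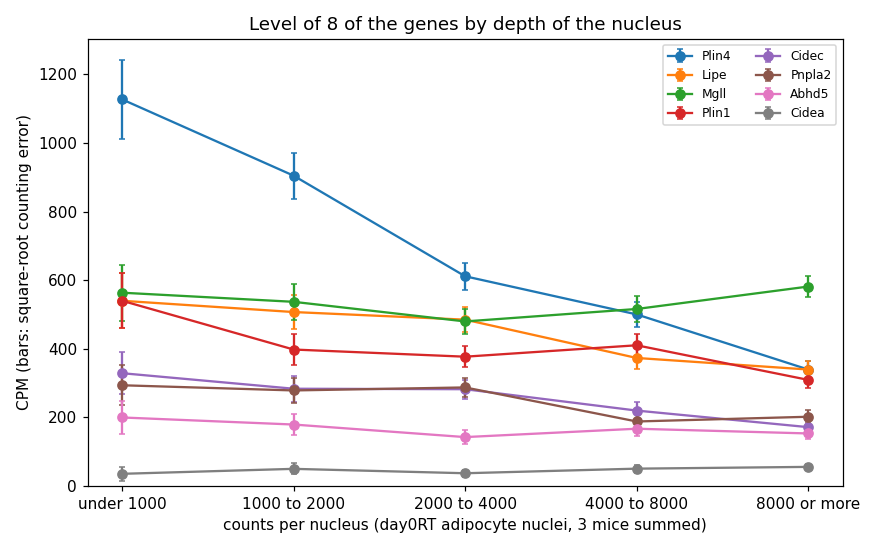
CPM of 8 of the genes in day0RT adipocyte nuclei of 3 mice summed, by counts per nucleus (5 bins of 63 to 168 nuclei), with square-root counting error. These bars show no spread between mice. Plin4 ran from 1127 in the shallowest bin to 339 in the deepest, while Mgll was at 563 and 581.

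Among the lipases, Pnpla2 encodes ATGL, which takes the first fatty acid from triglyceride. It stood at 213, 233 and 275 CPM in the day0RT mice and at 160, 176 and 193 in the day7C mice. The day3C mice (206.5, 216 and 220.2) and the day1C mice (183, 237 and 242) overlapped with day0RT. The 3 mice of each CL group lay below all day0RT mice: 149, 153 and 181 in day1CL, 172, 182 and 197 in day3CL and 158, 189 and 195 in day7CL. By edgeR the log2 fold change was -0.41 ± 0.12 (SE) at day7C (adjusted p = 0.0324), -0.39 ± 0.12 at day3CL (adjusted p = 0.0367) and -0.43 ± 0.12 at day7CL (adjusted p = 0.0141). At day1CL it was -0.44 ± 0.14, which did not pass (adjusted p = 0.0773), and day1CL mouse 1 held 8 Pnpla2 counts.

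Lipe encodes HSL, which cleaves diglyceride. Its levels were 398, 437.5 and 437.6 CPM in day0RT, 307, 318 and 345 in day7C, and 311, 327 and 378 in day3C. The day7C and day3C mice lay below day0RT, but edgeR called only day7C (-0.39 ± 0.11, adjusted p = 0.0292), with -0.31 ± 0.11 at day3C (adjusted p = 0.139). The day1C mice, at 432, 476 and 501, overlapped with day0RT, and their fold change was positive (0.155 ± 0.115, adjusted p = 0.699, edgeR). The CL groups were at 243, 335 and 364 on day 1, 316, 318 and 365 on day 3 and 289, 322 and 447 on day 7. None of these passed by edgeR (adjusted p = 0.305, 0.077 and 0.0743). All day1CL and day3CL mice lay below day0RT, and 1 day7CL mouse lay above all day0RT mice.

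Mgll was at 459, 503 and 662 CPM in day0RT and at 527 to 696 in the 18 treated mice, and every treated group overlapped with day0RT. Its log2 fold changes lay between 0.08 (day7CL) and 0.29 (day1C), with adjusted p from 0.251 to 0.702. Mgll had by far the most peaks, 41 of the 91, over a gene of 103949 bases.

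Neither regulator of ATGL passed the test in any comparison with day 0. Abhd5 was at 140, 165 and 187 CPM in day0RT and 112 to 225 in the treated mice, with log2 fold changes from -0.29 ± 0.15 (day1C, adjusted p = 0.529) to 0.11 ± 0.13 (day3C, adjusted p = 0.773). G0s2 was at 96.5, 96.8 and 104 in day0RT. The day1C mice lay above these (110, 116 and 138.5) and the day7C mice below (78.6, 89.4 and 90.8), with log2 fold changes of 0.23 ± 0.15 (adjusted p = 0.647) and -0.22 ± 0.15 (adjusted p = 0.458). The day1CL mice (74.7, 90.1 and 96.53) also lay below day0RT, the highest by little, and the other groups overlapped with it. A G0s2 library held 4 to 280 counts.

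Of the perilipins, Plin1 was at 337, 348 and 446 CPM in day0RT. It lay below that range in day3C (260, 272 and 328), day7C (258, 266 and 324), day3CL (271, 284 and 303) and day7CL (233, 264 and 318). The day1C mice (379, 408 and 443) and the day1CL mice (308, 324 and 392) overlapped with day0RT. By edgeR the log2 fold changes were -0.40 ± 0.11 at day3C (adjusted p = 0.0406), -0.43 ± 0.12 at day7C (0.0124), -0.38 ± 0.11 at day3CL (0.0287) and -0.52 ± 0.11 at day7CL (0.00144).

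Plin4 was at 507, 594 and 642 CPM in day0RT and at 605, 639 and 642 in day1C, and the day1CL mice at 466, 538 and 560 overlapped with day0RT too. It was lower in day3C (388, 401 and 456), day7C (355, 416 and 431) and day3CL (357, 392 and 454), with no overlap with day0RT. The day7CL mice were spread over 292, 404 and 516, and the highest overlapped with day0RT. The lowest of them was mouse 1, the library of the deepest nuclei. The log2 fold changes by edgeR were -0.47 ± 0.12 at day3C (adjusted p = 0.0167), -0.51 ± 0.12 at day7C (0.00274), -0.49 ± 0.11 at day3CL (0.00377) and -0.56 ± 0.12 at day7CL (0.000754). Plin4 was also the gene with the strongest relation to depth, and the part of depth in these falls was tested only by the alternatives given earlier.

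Plin5 was at 46.9, 47.3 and 64.5 CPM in day0RT and at 41.3 to 74.7 in the treated mice, and every group overlapped with day0RT. Its log2 fold changes ran from -0.14 ± 0.18 (day7CL) to 0.29 ± 0.20 (day1CL), and its smallest adjusted p in these 6 comparisons was 0.524. A Plin5 library held 3 to 189 counts.

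The CIDE genes moved in opposite directions. Cidec was at 221, 240 and 255 CPM in day0RT and at 241, 272 and 285 in day1C, which overlapped. It was at 140, 171 and 174 in day3C and 154, 159 and 160 in day7C, all below day0RT. The CL groups also lay below, at 131, 159 and 190 on day 1, 171, 179.1 and 179.4 on day 3 and 151, 165 and 207 on day 7. By edgeR the log2 fold changes were -0.51 ± 0.12 at day3C (adjusted p = 0.0119), -0.57 ± 0.12 at day7C (0.0015), -0.42 ± 0.12 at day3CL (0.0226) and -0.48 ± 0.12 at day7CL (0.00542). At day1CL the value was -0.37 ± 0.14 and did not pass (adjusted p = 0.156).

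Cidea was at 39, 52.7 and 53.8 CPM in day0RT and at 63.6, 71.8 and 90.6 in day7C, with no overlap. The day3CL mice were at 57.3, 78.4 and 78.5, also above day0RT, and the day7CL mice at 51.9, 75.9 and 92 overlapped with it. The day1C, day3C and day1CL mice overlapped with day0RT too. The log2 fold changes by edgeR were 0.62 ± 0.19 at day7C (adjusted p = 0.0388), 0.56 ± 0.18 at day7CL (0.0394) and 0.52 ± 0.18 at day3CL, which did not pass (0.0778). Because Cidea was higher in beige nuclei, and beige nuclei made up more of the day7C adipocytes, the comparison was also made in white nuclei alone. There the value was 0.44 at day7C (adjusted p = 0.351), 0.62 at day3CL (0.0392) and 0.64 at day7CL (0.031).

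**Figure D4:**
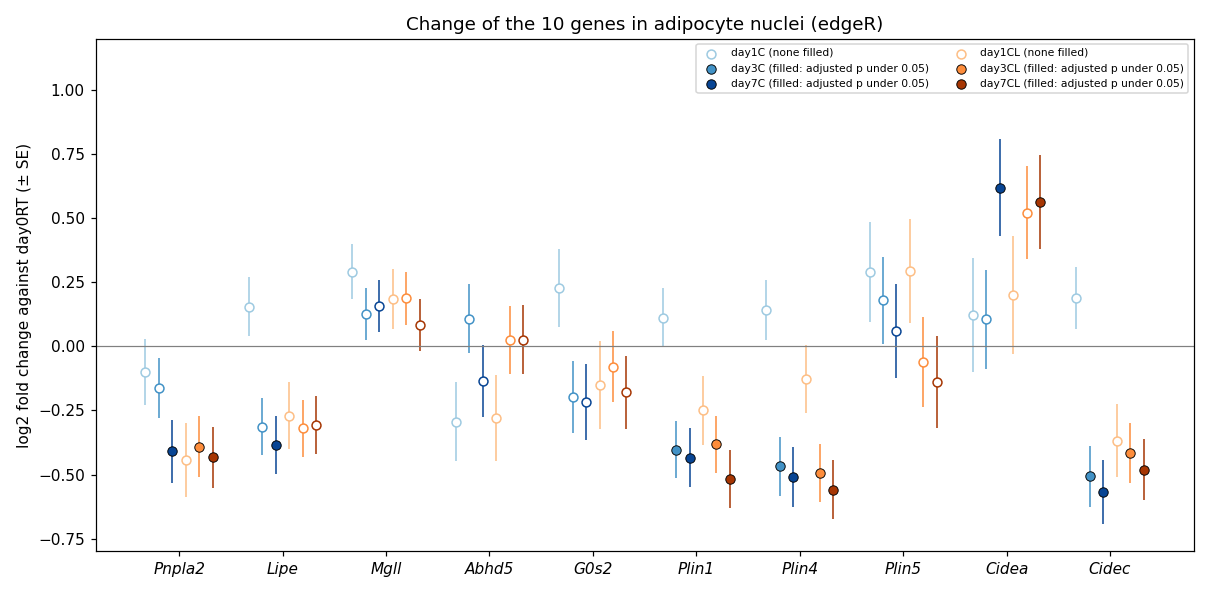
Log2 fold change against day0RT of each of the 10 genes in adipocyte nuclei (y axis, ± SE derived from edgeR's F statistic) for the 3 cold and 3 CL groups, with filled points where the adjusted p was under 0.05. The filled points of Pnpla2, Lipe, Plin1, Plin4 and Cidec lie between -0.38 and -0.57, and those of Cidea at 0.62 and 0.56.

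Cold and CL were then compared on the same day, which uses no day 0 mouse. At day 1, 1 of the 10 genes was lower with CL than in cold and 0 were higher, against 0.464% and 0.457% of all genes. This was Cidec, at 131, 159 and 190 CPM in day1CL and 241, 272 and 285 in day1C, with no overlap (log2 difference -0.56 ± 0.14, adjusted p = 0.0214, edgeR). The call was lost without day1CL mouse 2, day1CL mouse 3 or day1C mouse 1, while 2 genes were called without day7CL mouse 3. At day 3, 0 of the 10 differed, against 0.444% of all genes lower and 1.01% higher with CL. At day 7, 0 differed, against 0.0208% and 0.0901%. By an unadjusted p under 0.05, 2 and 0 of the 10 passed at days 3 and 7, against 1741 and 1231 of all 14429 genes. DESeq2 called 0 of the 10 on both days, against 17 and 0 of all genes. Without day3CL mouse 3, 1 of the 10 was called at day 3 by edgeR. The day 3 Cidea difference was 0.42 ± 0.13 (adjusted p = 0.0894), and in white nuclei alone it was 0.58 (adjusted p = 0.00802).

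The falls were called at 4 peaks of Plin1, 4 of Plin4, 2 of Cidec and 1 of Pnpla2, and all 11 are given here, those beyond the naming rule having been chosen after their values were seen. Of the 70 peaks tested among 47835, none rose in a comparison with day 0. The share of all peaks that rose is not given, so the lack of rises cannot be read as particular to these peaks. In cold, 0, 1 and 4 of the 70 fell at days 1, 3 and 7, against 0.132%, 0.631% and 1.34% of all peaks. With CL, 0, 4 and 9 fell at days 1, 3 and 7, against 1.17%, 1.25% and 1.89%. By an unadjusted p under 0.05, 8 of the 70 passed at day1C and 5 at day1CL, with no share over all peaks given at this threshold. DESeq2 called 0 of the 70 in each of these comparisons, and its count over all peaks is not given either. Neither result can therefore be read as particular to these peaks. Without day7CL mouse 1, edgeR called 0 at day 7 of CL. At day 7 of CL it called 2 without day0RT mouse 1 and 5 without day0RT mouse 2 or mouse 3. At day 3 in cold it called 0 without day3C mouse 1 and 2 without day7CL mouse 1 or mouse 3. The counts at day 7 in cold and day 3 of CL changed by over 1.5 times on leaving out any of 15 and 17 mice, with the lowest counts 0 without day7C mouse 1 and 1 without day0RT mouse 1, day0RT mouse 2 or day3CL mouse 3.

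The peak with the highest level was the Plin4 coding peak whose repeat units are printed earlier, open in 46.2% of white adipocyte nuclei. In CPM taken over all peaks, it was at 146, 157.5 and 185 in day0RT, 93.5, 95.6 and 112 in day3C and 87.6, 104 and 115 in day7C. In the CL groups it was at 84.7, 102 and 115 on day 3 and 63.7, 92.7 and 145 on day 7. All of these lay below day0RT, the highest day7CL mouse by little. By edgeR the log2 fold change was -0.61 ± 0.13 at day3C (adjusted p = 0.00175), -0.59 ± 0.13 at day7C (0.00275), -0.55 ± 0.12 at day3CL (0.00225) and -0.76 ± 0.13 at day7CL (1.06e-05). The peak over the 3′ end of Plin4 (chr17:56099849-56101812, exonic with UTR, shared with Hdgfl2) fell, with log2 fold changes of -0.41 ± 0.13 at day3CL (adjusted p = 0.0477), -0.58 ± 0.14 at day7C (adjusted p = 0.00615) and -0.65 ± 0.14 at day7CL (0.000734).

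At the Plin4 start (chr17:56108562-56110336) the value was -0.47 ± 0.14 at day7CL (adjusted p = 0.0332, edgeR), and a small upstream peak (chr17:56111060-56111399) was called at day3CL only (-0.70 ± 0.21, 0.0372). The Plin1 start peak (chr7:79732558-79733093), which spans the C/EBP-type matches, fell at day7C (-0.61 ± 0.19, 0.0499) and day7CL (-0.66 ± 0.18, 0.0156). Further Plin1 peaks fell at day7CL, over exons at chr7:79729823-79730114 (-0.85 ± 0.25), chr7:79721300-79721942 (-0.77 ± 0.21) and chr7:79718865-79720418 (-0.56 ± 0.16).

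The Cidec start peak (chr6:113434607-113436164), which held 51.1% of the level of that gene, fell at day3CL (-0.45 ± 0.14, adjusted p = 0.0471, edgeR) and day7CL (-0.53 ± 0.15, 0.0173). A peak over its 3′ end (chr6:113424375-113424752) fell at day7C (-0.94 ± 0.29, 0.0474). The only Pnpla2 peak called ended 588 bases upstream of the start (chr7:141454360-141454610) and fell at day7CL (-0.996 ± 0.27, 0.0148). No peak of Lipe, Mgll, Abhd5, G0s2, Plin5 or Cidea was called.

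Start peaks differed in weight between the genes. The peak over the gene start held 81.3% of the summed peak level for G0s2, 57.3% for Cidea, 51.1% for Cidec, 46.5% for Plin5 and 41.6% for Pnpla2. It held 30.6% for Abhd5, 24.5% for Plin4, 15.9% for Plin1 and 5.65% for Mgll. The GENCODE start of Lipe (chr7:25398710) had no peak, and the nearest one was 2144 bases downstream over an exon (chr7:25395133-25396566). That peak covers the RefSeq start of Lipe (chr7:25395987). The Lipe peak with the highest level had its middle 8366 bases into the gene (chr7:25389938-25390750, exonic with UTR), open in 26.5% of white nuclei. When only peaks within 2000 bases of a GENCODE gene start were counted, 0 genes were called at days 3 and 7 in cold and at day 3 of CL, and 1 at day 7 of CL. By the GENCODE start, Lipe had no such peak.

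**Figure D5:**
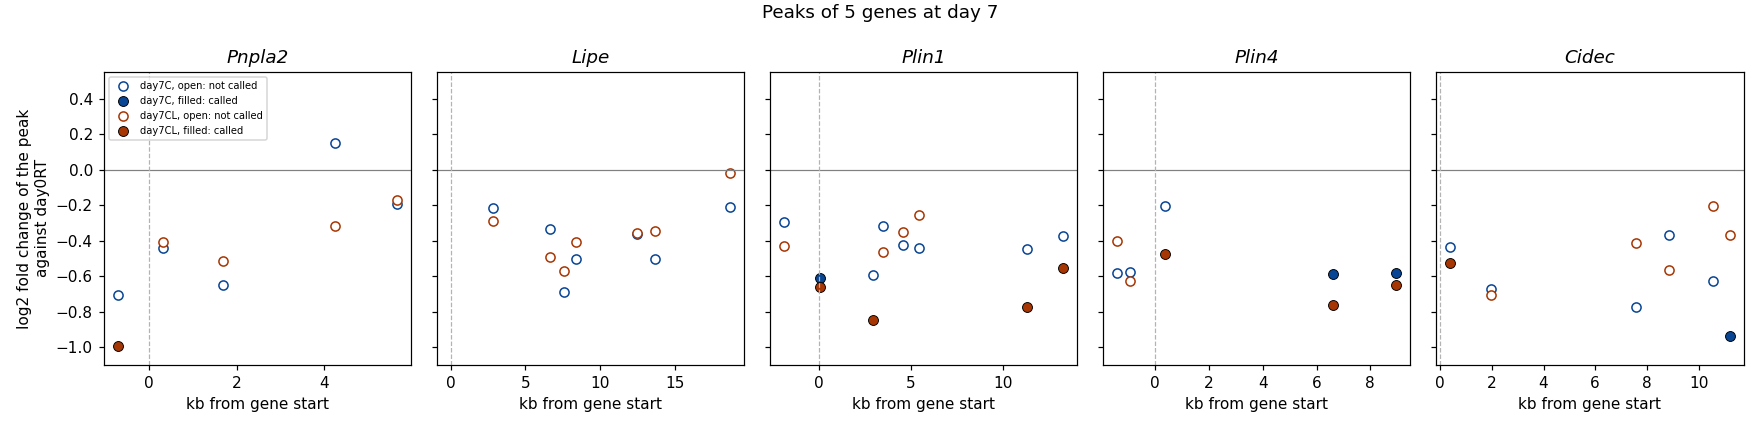
Log2 fold change at day 7 of each tested peak of Pnpla2, Lipe, Plin1, Plin4 and Cidec (y axis) by the distance of its middle from the gene start in kb (x axis), in cold and with CL, filled where called. Filled points occur at the start, in the body and at the 3′ end of Plin1 and Plin4, and a Pnpla2 peak upstream of the start lies at -0.996.

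The other genes of the pathway were followed in a list of 35, of which 33 were tested. They covered further droplet coat proteins, triglyceride synthesis, other lipases, signalling to lipolysis and the handling of its products. In cold, 0, 2 and 2 of the 33 fell at days 1, 3 and 7 and none rose, against 0.236%, 0.783% and 2.11% of all genes that fell and 0.104%, 0.894% and 2.97% that rose. With CL, 3, 1 and 5 fell and 0, 3 and 0 rose, against 1.46%, 1.69% and 3.17% that fell and 1.15%, 3.08% and 4.64% that rose. The list's median log2 fold change was between -0.16 and -0.01 in the 6 comparisons.

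Dgat1, an enzyme of the last step of triglyceride synthesis, fell by edgeR at day7C (-0.70 ± 0.14, adjusted p = 0.000289) and in all 3 CL groups, with log2 fold changes of -0.65 ± 0.16 on day 1, -0.41 ± 0.13 on day 3 and -0.70 ± 0.13 on day 7. Fabp4, the fatty acid binding protein of the adipocyte, fell at day3C (-0.59 ± 0.13, 0.00617) and day7C (-0.57 ± 0.13, 0.00291). It was also lower at day7CL (-0.43 ± 0.13, 0.0231) and in day1CL than in day1C (-0.63 ± 0.15, 0.0131), results chosen after their values were seen. Aqp7, the glycerol channel, fell at day3C (-0.58 ± 0.15, 0.0191) and day7CL (-0.44 ± 0.14, 0.043). Adrb3, which encodes the receptor that CL activates, fell at day1CL (-0.68 ± 0.17, 0.00867), as did the lactate receptor gene Hcar1 (-0.86 ± 0.24, 0.032). The day1CL libraries held 29, 68 and 654 adipocyte nuclei, and Hcar1 had a mean of 49 counts over all libraries. No alternative setting is given here for genes of this list. The genes that rose at day3CL were Pnpla3 (0.62 ± 0.15), Plin3 (0.41 ± 0.12) and Dgat2 (0.37 ± 0.11). Dgat2 encodes a second enzyme of the step that Dgat1 catalyses. By edgeR, Hcar2, also listed under signalling to lipolysis, fell at day7CL (-0.62 ± 0.16, adjusted p = 0.00935). Dgat1 was lower in day1CL than in day1C (-0.57 ± 0.155, 0.0487), and Pnpla3 was higher in day3CL than in day3C (0.50 ± 0.12, 0.0131).

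Over the 21 adipocyte libraries, which share their depth differences, the genes most like the members other than Plin5 were sought on other chromosomes among 6855 genes with a mean of at least 50 counts. Pearson's r of log2 levels is given as a description. Plin4 was most like Cebpa (r = 0.94), which encodes an adipocyte C/EBP factor, and Plin1 (0.89). Cidec and Lipe were most like each other (0.93), and G0s2 was most like Lipe (0.88). Pnpla2 was most like Vegfa (0.93) and Gstt2 (0.90). Cidea was most like Rnf144b (0.86) and Itpr2 (0.83), Mgll like 3110001I22Rik (0.80) and Sgms2 (0.76), and Abhd5 like Ergic1 (0.78) and Unc5b (0.77).

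Marker genes of other cell types also had counts in the adipocyte libraries. The 3 macrophage markers summed to 29.3 to 43 CPM in day0RT and lay above that in all 4 later groups, at 47.6 to 63.8 in day3C, 43.1 to 53 in day7C, 44 to 52.8 in day3CL and 46.8 to 56.8 in day7CL. The 4 T cell markers summed to 12.9 to 20.5 in day0RT and 7.18 to 9.08 in day7C, with 12 to 18.2 in day3C, 8.96 to 16.5 in day3CL and 12.7 to 18.1 in day7CL. For the 4 B cell markers the sums were 115 to 152 in day0RT and 88.4 to 100.5 in day7C, with 94.1 to 137.5, 101 to 121.5 and 123 to 141 in day3C, day3CL and day7CL. T and B cell markers thus lay below day0RT without overlap in day7C alone of these 4 groups. The 3 mural markers summed to 109 to 147 in day0RT and were above it in day3CL (154 to 179). The 3 dendritic cell markers summed to 85.5 to 104 in day0RT and were below it in day7C (71.1 to 83) and day3CL (69.4 to 80). The 3 progenitor markers summed to 43.1 to 53.8 in day0RT and were below it in day3C (19.7 to 43.05), day3CL (41.9 to 42.6) and day7CL (31.2 to 41.7). The 3 skeletal muscle markers (4.11 to 21.5 in day0RT, 15.1 to 19.1 in day7CL) and the 3 endothelial markers overlapped with day0RT in all 4 groups. Some markers were highest in a cluster other than that of their list: Zbtb46 of the dendritic list in VSMC (175 CPM), Adgre1 of the macrophage list in dendritic cells and Cdh5 of the endothelial list in macrophages. In white adipocytes Zbtb46 was at 61.2 CPM, against 24.9 for Flt3 and 3.11 for Itgax, the other dendritic markers. Pecam1 was at 122, against 6.01 for Cdh5 and 2.08 for Kdr. The sums need not come from the cell type named. The part of these markers in the changes of the 10 genes was not tested.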

How the data were processed

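Inguinal adipose tissue nuclei of 21 mice were profiled in 4 pooled sequencing lanes. The labels describe lanes, so mouse, group and cluster of each nucleus were taken from the authors' deposited metadata. The submitters' processing notes name Bowtie2, SAMtools, Signac and MACS2, and mm10. The authors deposited counts as a peak-by-nucleus matrix with entries of 1 (65588856, and 145 stored zeros), so depth of coverage within a peak is not kept. No reads were aligned again.

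Peaks overlapping a GENCODE gene body or the 2000 bases upstream were summed per mouse and cluster, and 3.43% of peaks fell to more than 1 gene. Cluster libraries needed at least 10 nuclei. Adipocyte libraries were tested with edgeR 4.0.16 in R 4.3.3 (quasi-likelihood, TMM, filterByExpr with minimum count 10, total 15, proportion 0.7, all 7 groups in the fit, two-sided), with Benjamini-Hochberg adjustment over all genes or peaks. Tables used Python 3.11.15, pandas 2.3.3 and numpy 2.4.6. The test was checked on simulated data. The SD given is between mice, and the SE of a fold change was derived from edgeR's F statistic. In the plot of levels by counts per nucleus, the bars are square-root counting errors and show no spread between mice.

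The members and lists were chosen with earlier results of these data known. All 10 genes were named, with each gene's start peak, its highest other peak and its largest called change; up to 3 called genes of the wider list in each direction with a mean of at least 20 counts; and the 2 most alike genes on another chromosome, which are not reported here for Plin5. Alternatives were DESeq2 1.42.0, no TMM, no filter, promoter peaks, single-gene peaks, white nuclei, nuclei of at least 2000 counts, only the groups compared, a replicate block, depth as covariate, an adjusted p under 0.01 and each mouse left out. No sequence or coordinates are given for Cidea.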

Additional observations from a re-analysis of the deposited data

Results flagged for a closer look

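In the fit reported, Cidec was the 1 gene of the 10 for which the effects of cold and CL differed on the same day by the test of the difference itself. At day 1 the log2 difference of CL minus cold was -0.56 (adjusted p = 0.0214, edgeR), with all 3 day1CL mice below all 3 day1C mice. Over 33 alternatives the difference ran from -0.81 to -0.37 and the adjusted p from 0.00975 to 0.454, and 26 of them kept the call. Under some alternatives further genes passed, among them Lipe at day 1 with depth per nucleus as a covariate (-0.46, adjusted p = 0.032, edgeR) and Cidea at day 3 in white nuclei alone (0.58, adjusted p = 0.00802, edgeR). The smallest day1CL library held 29 adipocyte nuclei.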

How the results depend on the processing

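No called difference changed sign. Of refits of the single called differences, 348 kept the call and 51 lost it with 1 mouse left out, and 144 kept it and 82 lost it under other settings. Of 2441 refits of uncalled ones, 98 changed direction and 17 passed. In the order day 3 and day 7 in cold, then day 3 and day 7 of CL, 3, 6, 4 and 5 genes were called. The counts were 1, 3, 1 and 4 with DESeq2, 0, 0, 0 and 1 with promoter peaks, 3, 2, 4 and 5 in white nuclei, 0, 2, 0 and 3 in nuclei of at least 2000 counts, 0, 4, 0 and 0 with depth as covariate, and 0, 2, 1 and 3 at an adjusted p under 0.01. Nuclei of 1000 to 4000 counts, chosen after seeing the data, gave 0, 0, 0 and 1. Leaving out 1 mouse gave 0 to 3, 2 to 6, 1 to 5 and 0 to 5, and 0 to 1 at day 1 in cold. At day 1 of CL, depth as covariate gave 1. Of all 14429 genes, the fit reported called 242, 733, 688 and 1127 at day3C, day7C, day3CL and day7CL. DESeq2 called 53, 295, 179 and 278 of them, and an adjusted p under 0.01 left 50, 322, 264 and 433. No count over all genes is given for promoter peaks, white nuclei or nuclei of at least 2000 counts. A changed count under those settings cannot be read as particular to the genes described here. For CL against cold at day 1 (1 gene), DESeq2, promoter peaks, nuclei of at least 2000 counts, nuclei of 1000 to 4000 counts and the stricter p gave 0, single-gene peaks and depth as covariate gave 2, and leaving out 1 mouse gave 0 to 2. Of all genes tested, DESeq2 and nuclei of 1000 to 4000 counts each called 9 there, the stricter p 40 and depth as covariate 201. At day 3 (0 genes), promoter peaks and white nuclei each gave 1, and leaving out 1 mouse 0 to 1. For peaks (1, 4, 4 and 9), DESeq2 and nuclei of 1000 to 4000 counts gave 0 throughout, no filter gave 0, 0, 0 and 2, depth as covariate 0, 2, 0 and 2, with 1 at day 1 of CL, no TMM gave 2 at both cold days, white nuclei 0 at day 7 in cold and 2 at day 3 of CL, and the stricter p 2, 1 and 2 in the last 3. Leaving out 1 mouse gave 0 to 2, 0 to 5, 1 to 5 and 0 to 12. Some settings use fewer nuclei or peaks, and the causes of these changes in count were not tested. Leaving out the nuclei that repeat another mouse's barcode, also chosen after seeing the data, changed no gene count.

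Residuals of mice with the same number correlated at -0.121 to 0.115 (median 0.001, 63 pairs, 1 over 0.1). Those of mice with different numbers correlated at -0.062 to 0.112 (median -0.001, 126 pairs, 2 over 0.1). With few mice per group, these values cannot decide whether mouse numbers paired the samples. The paper reports that its snATAC-seq batches were run independently, and whether mouse numbers follow those batches was not tested. With the replicate block, 2, 6, 4 and 4 genes were called, 2 for CL against cold at day 1, and 2 peaks at day 7 in cold.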
